A study of Mus musculus with 15 samples.

Results

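The immediate early and dissociation response genes examined here were Fos, Jun, Junb, Egr1, Atf3, Ier2, Ier3, Dusp1, Myc and Gadd45b, 10 genes taken by symbol from the 55984 listed in the count table. They were followed in hepatocytes from the livers of wild-type adult male C57BL/6JJcl mice, sorted by the fluorescence of the DNA dye Hoechst. The 2n-whole population held diploid cells and the 4n-whole population all tetraploid cells. The 4n-bottom population, with the lower peak of Hoechst signal, was enriched for binucleated tetraploid cells. The 4n-top population, with the higher peak and from a single round of sorting, was enriched for mononucleated tetraploid cells but was not pure. There were 15 libraries from 4 mice, 4 for each population except 4n-top, where 3 libraries (mice 2, 3 and 4) were analysed. The paper left out the 4n-top library of mouse 1 because its RNA was of poor quality. All groups shared the perfusion with collagenase, a Percoll step, a warm incubation with Hoechst and reserpine, and the removal of dead cells in the sorter. After sorting, the 2n cells were spun faster and for longer than the 4n cells, so ploidy and this step cannot be told apart.

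Immediate early genes are transcribed within minutes of a stimulus, without new protein synthesis, when kinases of the MAP kinase family activate factors already bound at their promoters. Fos, Jun and Junb encode subunits of the dimeric transcription factor AP-1, Egr1 a zinc finger factor, and Atf3 a stress-responsive factor of the ATF/CREB family. Dusp1 encodes a phosphatase that shuts off MAP kinases, and Gadd45b a stress protein that acts on the same kinases. In the liver these genes are known for their fast rise after partial hepatectomy and after collagenase digestion, and no undigested liver was measured here, so the levels below cannot be split into a part present in the animal and a part acquired during isolation.

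The libraries held 22049498 to 42096421 counts, at which 3 counts, taken as the lowest detectable level, correspond to 0.0693 to 0.120 CPM (counts relative to library size, with the library sizes scaled by the TMM method). Such limits cover counting error only. Checked against markers of the labelled cell type, 9 hepatocyte genes led by Alb and Trf summed to 85490 to 116100 CPM in each library. Markers of endothelial, macrophage, stellate, biliary and lymphoid cells and neutrophils were present at trace levels (38.1 to 98.9 CPM in all), and 2 of 5 neutrophil markers were at 0 in every library. Genes encoded by the mitochondrial genome took 20.5 to 26.2% of the counts in 2n-whole, 12.2 to 23.6% in 4n-bottom, 11.9 to 13.0% in 4n-top and 8.84 to 18.5% in 4n-whole. Because RNA was measured in bulk, fewer cells expressing a gene and less of its RNA per cell cannot be told apart.

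The AP-1 genes were among the most abundant messages of these hepatocytes. Per kilobase of annotated exon, the mean level over the 15 libraries was 200.5 CPM for Jun and 179.7 for Fos, ranks 127 and 145 of 17463 genes. By comparison, Hnf4a, a master regulator of hepatocyte identity, had 113.3 and the housekeeping genes Gapdh 119.6 and Actb 455.4 CPM per kilobase, while the secreted liver proteins Ttr, Apoa1 and Alb had 2441 to 12100. Ier2, an immediate early gene whose product acts in the nucleus, followed with 141.1, Atf3 with 88.0, Junb with 75.4, Egr1 with 69.6 and Dusp1 with 41.7 CPM per kilobase. Myc, the growth-promoting transcription factor, was far lower at 7.91 (rank 2462), and Gadd45b stood mid-table at 1.30 (rank 8109). Neighbours in this order overlapped in their range over libraries. For example, Jun spanned 144.4 to 329.5 and Fos 108.9 to 271.3 CPM per kilobase. The 10 genes together took 0.141 to 0.363% of all counts, lowest in the 2n-whole library of mouse 4 and highest in the 4n-whole library of mouse 2. The annotation (GENCODE M39, GRCm39) has genes that overlap Jun, Junb, Atf3, Ier3, Dusp1 and Myc on the opposite strand, and whether the counting used strand is not given in the sources used here. Dusp1 also shares its span with the pseudogene Gm50274 and the non-coding Gm50275 on its own strand.

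Ier3, an immediate early gene linked to the control of apoptosis, was the exception. It had 0 to 26 counts per library and did not pass the filter on low counts, so 9 of the 10 genes were tested. Its 5 libraries at 0 came from mice 2, 3 and 4, and its 3 libraries from mouse 1 had 26, 8 and 16 counts (0.641 CPM in 2n-whole, 0.206 in 4n-whole and 0.457 in 4n-bottom). All other libraries had 10 counts or fewer.

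Of the 10 genes, 7 had a promoter entry in the RefSeq table of GRCm38.p6 sequences. The 250 bases before the start are shown for 4 genes that share a motif of one family, and the same bases were located in GRCm39 by exact match, at chr12:85520414-85520663 on the plus strand and, on the minus strand, at chr4:94940460-94940709, chr1:190915531-190915780 and chr17:26727447-26727696. Capitals mark TGACGT, the core of the cyclic AMP response element, its extended form TGACNTCA, to which ATF and AP-1 dimers can bind, and TATAA, each searched on both strands.
Fos: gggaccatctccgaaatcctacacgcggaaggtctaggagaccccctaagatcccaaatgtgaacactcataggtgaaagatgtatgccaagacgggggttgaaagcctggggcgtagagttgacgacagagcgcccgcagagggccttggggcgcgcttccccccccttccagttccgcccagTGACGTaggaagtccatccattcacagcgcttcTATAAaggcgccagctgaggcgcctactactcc
Jun: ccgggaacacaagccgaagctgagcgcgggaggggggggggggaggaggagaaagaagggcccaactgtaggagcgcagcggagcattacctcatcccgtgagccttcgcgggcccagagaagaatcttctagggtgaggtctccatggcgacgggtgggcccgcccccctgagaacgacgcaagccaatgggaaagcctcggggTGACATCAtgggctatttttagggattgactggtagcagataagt
Atf3: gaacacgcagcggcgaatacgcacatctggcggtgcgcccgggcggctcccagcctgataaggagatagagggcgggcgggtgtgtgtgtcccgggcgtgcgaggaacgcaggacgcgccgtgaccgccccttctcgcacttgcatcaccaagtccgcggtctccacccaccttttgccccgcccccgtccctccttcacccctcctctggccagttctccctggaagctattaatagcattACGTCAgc
Dusp1: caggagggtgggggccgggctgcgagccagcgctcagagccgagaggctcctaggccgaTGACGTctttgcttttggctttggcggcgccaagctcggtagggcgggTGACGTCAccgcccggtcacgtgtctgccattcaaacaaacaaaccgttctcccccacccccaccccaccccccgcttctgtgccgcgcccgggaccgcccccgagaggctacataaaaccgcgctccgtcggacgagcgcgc

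TGACGT lay 61 to 66 bases before the start of Fos and, on the opposite strand, 3 to 8 bases before that of Atf3. Dusp1 held it 186 to 191 bases before its start and in both orientations at 136 to 143 bases, where the palindrome is also a TGACNTCA match. Jun had TGACNTCA at 38 to 45 bases. Over all 32851 promoter windows of the table, 6.47% held TGACGT, 7.49% TGACNTCA and 22.8% TATAA. Neither TGACGT nor TGACNTCA occurred in the windows of Junb, Ier3 and Gadd45b, and the classical AP-1 site TGANTCA (6.75% of windows) and the CArG box bound by SRF (1.47%) occurred in none of the 7. Bases further upstream, and the promoters of Egr1, Ier2 and Myc, which had no entry, were not searched. These letters are a description of the windows and say nothing about which factor was bound.

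The levels of these genes differed more among the 4 mice than among the 4 populations. In the test of any difference among mice, 8 of the 9 tested genes passed an adjusted p of 0.05 (edgeR's quasi-likelihood F test with the population in the model, Benjamini-Hochberg adjusted over 17488 genes), against 19.2% of all tested genes and 38.9% of the 4910 genes with a mean of at least 20 CPM, the range in which 8 of the 9 lie. The ninth, Junb, had an adjusted p of 0.0657. Libraries of 1 mouse share an animal and its perfusion, which cannot be told apart, and whether they share a day of sorting is not given in the sources used here. The genes did not move as 1 block, however: each mouse had its own combination of high and low members, which the plot of levels by mouse shows.

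**Figure D1:**
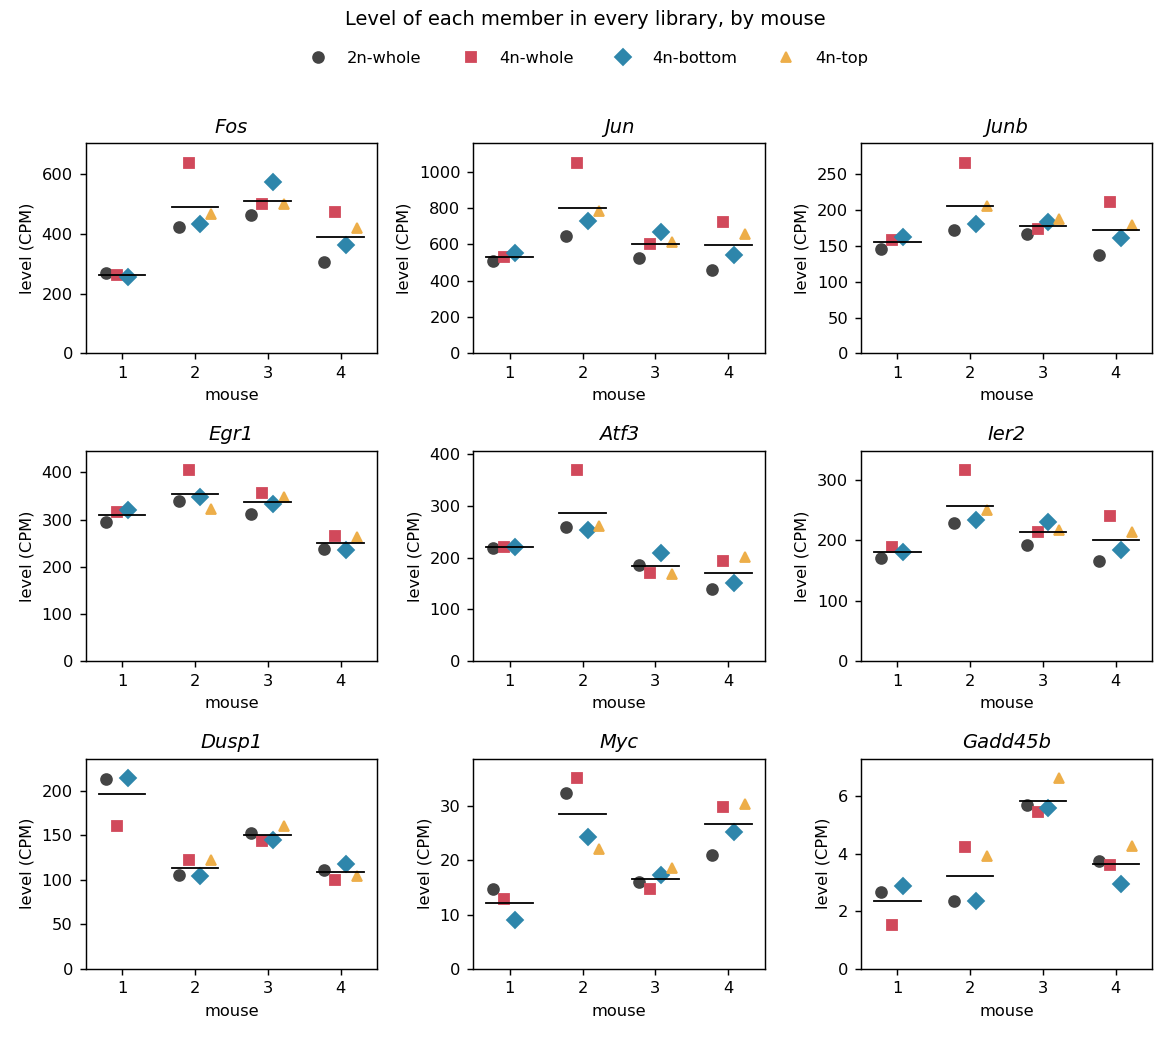
Level in CPM (vertical axis, from 0) of the 9 tested genes in each library, by mouse (horizontal axis). Symbols stand for the population and black lines for the mean of a mouse's libraries (3 for mouse 1, 4 for the others). Mouse 1 is lowest for Fos and Myc and highest for Dusp1, and mouse 3 is highest for Gadd45b.

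Fos separated mouse 1 from the rest. Its levels were 268 CPM in 2n-whole, 262.6 in 4n-whole and 256.8 in 4n-bottom of mouse 1, while the other 12 libraries spanned 304.9 to 639.6 CPM without overlap. The mean was 262.5 ± 5.58 CPM in mouse 1 (SD, n = 3 libraries), 491.5 ± 100.5 in mouse 2, 509.6 ± 46.6 in mouse 3 and 390.9 ± 73.2 in mouse 4 (n = 4 libraries each). The fitted levels of the mice spanned 0.95 on the log2 scale (edgeR adjusted p = 2.79e-06). Within mouse 1 the 3 populations lay close together.

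Jun was also lowest in mouse 1 on average, at 531.6 ± 21.9 CPM (SD, n = 3 libraries), and highest in mouse 2, at 802.6 ± 174.3 (n = 4 libraries). Mice 3 and 4 had 600.4 ± 59.3 and 596.5 ± 117.8 CPM. The ranges overlapped, as the lowest library of all, 2n-whole of mouse 4, held 460.6 CPM. The span among mice was 0.55 on the log2 scale (edgeR adjusted p = 0.00115). Junb followed the same order with a narrower span of 0.37, from 155.5 ± 9.34 CPM in mouse 1 to 206.3 ± 42.5 in mouse 2, and so did Ier2 with 0.49, from 180.0 ± 8.97 to 257.1 ± 40.5 CPM (edgeR adjusted p = 0.00296).

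Egr1, whose protein activates growth and stress genes downstream of MAP kinases, was set apart by mouse 4. All 4 libraries of mouse 4 (236.7 CPM in 2n-whole, 264.3 in 4n-whole, 235.8 in 4n-bottom and 264.1 in 4n-top) lay below the other 11, which ran from 295.2 to 404.7 CPM. The span among mice was 0.50 on the log2 scale (edgeR adjusted p = 0.000285). Atf3 was highest in mouse 2, at 259.3, 369.1, 254 and 260.4 CPM in the same order of populations, above all other libraries (138.9 to 221 CPM). Its span was 0.74 (edgeR adjusted p = 6.75e-05).

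Dusp1 was set apart by mouse 1 in the other direction. Mouse 1, lowest for Fos, had the highest Dusp1, with 213 CPM in 2n-whole, 160.9 in 4n-whole and 214.7 in 4n-bottom. The other 12 libraries spanned 99.5 to 160.9 CPM, and only the 4n-whole library of mouse 1 came near them, since 4n-top of mouse 3 reached the same rounded value. The fitted span was 0.87 on the log2 scale (edgeR adjusted p = 1.17e-06). Dusp1 was the one tested member with its highest mean in mouse 1. Among mice 2 to 4 it had the same order of means as Fos, with 150.8 CPM in mouse 3, 113.4 in mouse 2 and 108.4 in mouse 4.

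Myc and Gadd45b, the least abundant tested members, had the widest spans, 1.22 on the log2 scale for each. Myc was 14.6, 12.9 and 9.09 CPM in the 3 libraries of mouse 1, 22.1 to 35.2 CPM in mouse 2 and 21.0 to 30.4 CPM in mouse 4, with mouse 3 between (14.7 to 18.6 CPM), and mouse 1 lay below all other libraries (edgeR adjusted p = 9.92e-06). Gadd45b was 5.70, 5.46, 5.61 and 6.64 CPM in the 4 libraries of mouse 3, above the 1.52 to 4.29 CPM of all others (edgeR adjusted p = 0.00982). The high libraries of Myc, those of mice 2 and 4, were thus not those of Gadd45b.

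**Figure D2:**
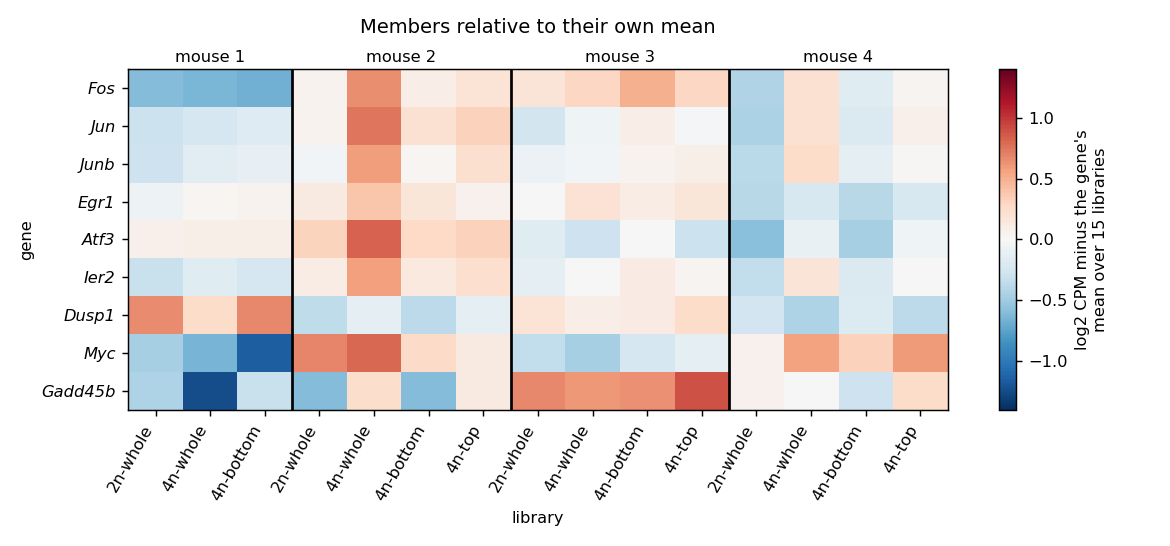
Each gene's log2 CPM minus its own mean over the 15 libraries (colour, red above and blue below the mean), with genes in rows and libraries in columns grouped by mouse. Fos is blue and Dusp1 red throughout mouse 1, Gadd45b is red throughout mouse 3, and the 4n-whole library of mouse 2 is the reddest column, with 8 of 9 genes above their mean.

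The span of the fitted levels among mice exceeded that among populations for all 9 tested genes, by little for Junb (0.37 in both to 2 decimals) and by most for Myc (1.22 against 0.26). This was also the usual order in the table, as 66.1% of all tested genes and 76.0% of those with at least 20 CPM had the larger span among mice. Over these better expressed genes the median span was 0.34 among mice and 0.21 among populations. Among the 8 members in this class, the mouse spans of 0.37 to 1.22 were all above the median of 0.34. Their population spans ran from 0.14 for Dusp1 to 0.41 for Jun. All but those of Dusp1 and Egr1 (0.18) were likewise above the median of 0.21 among populations.

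**Figure D3:**
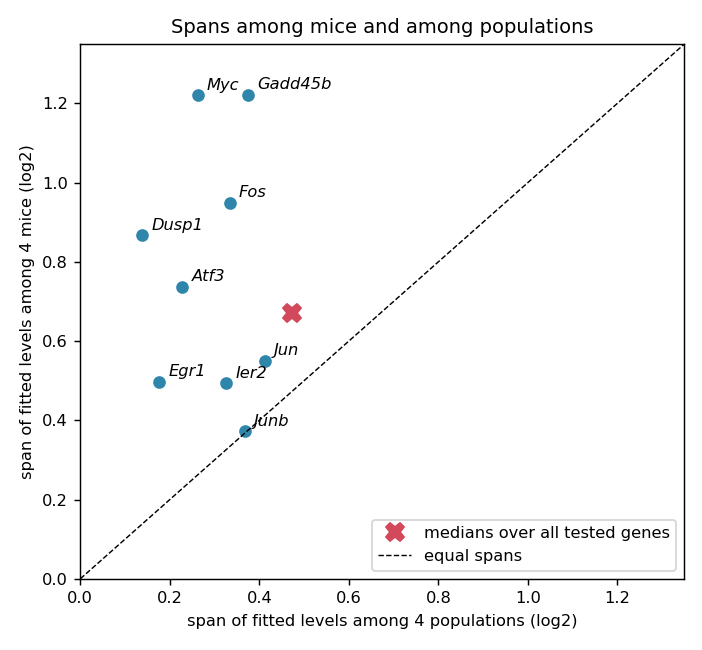
Span of the fitted levels among the 4 mice (vertical axis, log2) against that among the 4 populations (horizontal axis, log2) for the 9 tested genes (blue points) and the medians over all 17488 tested genes (red cross, 0.67 and 0.47). No gene lies below the dashed line of equal spans, and Junb lies on it.

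None of the tested genes was called between populations at an adjusted p under 0.05 with an absolute log2 fold change above 0.5. In 4n-whole against 2n-whole 0 of 9 were called, where 3.47% of all tested genes were. The count was also 0 of 9 in 4n-bottom against 2n-whole (background 0.463%), in 4n-top against 2n-whole (background 0.961%), and in 4n-top against 4n-bottom (background 0.0114%). In the test of any difference among the 4 populations 0 of 9 passed an adjusted p of 0.05 (background 1.95%). Among genes with at least 20 CPM these shares were 5.32, 0.835, 1.79 and 0.0407% in the 4 comparisons in this order, and 4.3% in the test among populations. With backgrounds this low, a count of 0 among 9 genes is near what the table as a whole gave. At an unadjusted p under 0.05 edgeR gave 5, 1, 2 and 0 of the 9 genes in the 4 comparisons in this order, where 20.4, 10.2, 11.3 and 2.79% of all tested genes passed, and 4 in the test among populations, where 13% of all genes passed. DESeq2, and edgeR without the mouse block, likewise called 0 of the 9 in each of the 4 comparisons. Without mouse 1, Jun was called in 4n-whole against 2n-whole (log2 fold change 0.52, edgeR adjusted p = 0.00735). In the test among populations, Jun, Junb and Ier2 passed in DESeq2 with no block after ComBat-seq removal of mouse effects, and Jun alone without mouse 3.

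The nearest to a difference was in 4n-whole against 2n-whole, where Jun, Junb and Ier2 were higher at an adjusted p under 0.05 but below the fold limit. Higher expression at that p with no fold limit was found for 2.93% of all tested genes and for 6.74% of those with at least 20 CPM. Jun was 508.8, 649.2, 522.7 and 460.6 CPM in the 2n-whole libraries of mice 1 to 4 and 533.4, 1051, 600 and 723.8 CPM in their 4n-whole libraries. The 4n-whole library was higher in 4 of 4 mice, by little in mice 1 and 3 (0.07 and 0.20 on the log2 scale) and by more in mice 2 and 4 (0.69 and 0.65), and the groups overlapped. The fitted log2 fold change was 0.41 ± 0.10 (SE, edgeR adjusted p = 0.0148).

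Junb, an AP-1 subunit that often opposes Jun, was 145.1, 172.6, 167.1 and 136.9 CPM in 2n-whole and 158.3, 266.3, 173.1 and 211.9 CPM in 4n-whole. It too was higher in 4 of 4 mice, with overlapping groups, and its log2 fold change was 0.37 ± 0.10 (SE, edgeR adjusted p = 0.0307). Ier2 was 171.1, 228.4, 192.7 and 166.6 CPM in 2n-whole and 189.1, 316.3, 213.4 and 239.6 CPM in 4n-whole, again higher in 4 of 4 mice. Its log2 fold change was 0.33 ± 0.09 (SE, edgeR adjusted p = 0.0358).

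These 3 results rested on few libraries. Without the 4n-whole library of mouse 2, none of the 9 genes had an adjusted p under 0.05 in this comparison, with log2 fold changes of 0.30 for Jun, 0.27 for Junb and 0.26 for Ier2, and the same was found without mouse 2 (0.30, 0.27 and 0.27) and without mouse 4 (0.32, 0.27 and 0.25). With all libraries kept but no replicate block the values were 0.44, 0.38 and 0.34 (edgeR adjusted p = 0.354, 0.321 and 0.412), and with the 2 compared populations alone 0.40, 0.35 and 0.32 (edgeR adjusted p = 0.102, 0.161 and 0.160). The adjusted p was thus above 0.05 there at fold changes close to those of the full model. The 4n-whole library of mouse 2 was the shallowest, had the lowest mitochondrial share (8.84%), and held the highest level of 7 of the 9 genes. Leaving the mitochondrial genes out of the table left the same 3 genes, whereas with the mitochondrial share as a covariate (0.11, 0.16 and 0.11) or the mean log2 level of endothelial, macrophage and stellate markers (0.35, 0.36 and 0.27) there were 0. The mitochondrial share was 20.5 to 26.2% in 2n-whole and 8.84 to 18.5% in 4n-whole, without overlap. A fit with this covariate therefore cannot separate the share from the population. The summed markers of all other cell types were 83.9 to 98.9 CPM in 2n-whole and 38.1 to 88.8 CPM in 4n-whole. All 9 tested genes had a higher exonic GC content than the median tested gene (50.4 to 62.6% against 48.6%), and a smooth trend of expression on GC content and length raised the median member by 0.25 on the log2 scale in the 4n-whole library of mouse 2, against -0.09 to 0.07 in the other 14. After correction for this trend 1 gene, Jun, remained under the adjusted p of 0.05. What part the mitochondrial share, depth or GC content has in these differences was not tested beyond these values.

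The other 6 tested genes did not pass in 4n-whole against 2n-whole. Fos was higher by 0.33 ± 0.11 (SE) on the log2 scale (edgeR adjusted p = 0.0600), with mouse 1 showing no rise (-0.03). The values were 0.23 ± 0.11 for Atf3, 0.18 ± 0.08 for Egr1, 0.08 ± 0.16 for Myc, 0.02 ± 0.27 for Gadd45b and -0.11 ± 0.10 for Dusp1. Over the 9 genes the median log2 fold change was 0.23, beside -0.01 over all tested genes, and 8 of 9 had a positive value where 49.3% of all genes did. These values come from the same libraries and are not independent.

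**Figure D4:**
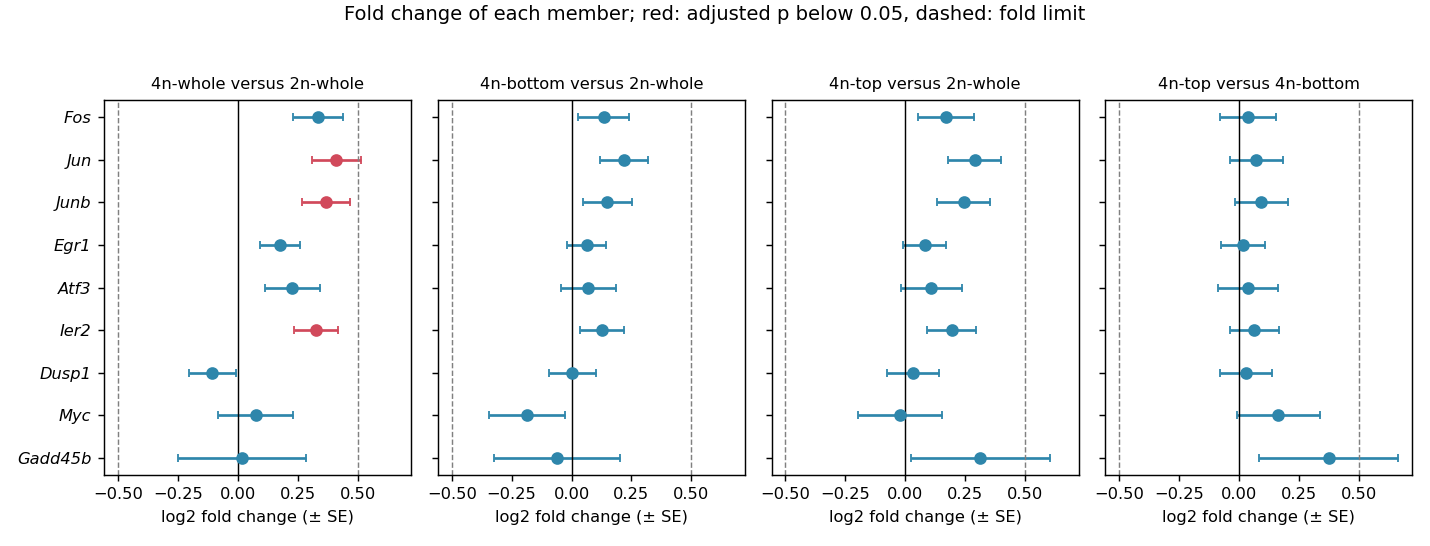
Fitted log2 fold change (horizontal axis, bars are ± 1 SE) of the 9 tested genes (rows) in the 4 comparisons (panels). Red points had an adjusted p under 0.05 and dashed lines mark the fold limit of 0.5 in either direction. Jun, Junb and Ier2 in 4n-whole against 2n-whole are the red points, and no point lies beyond a dashed line.

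In the 4n-bottom and 4n-top populations 0 of the 9 genes had an adjusted p under 0.05 against 2n-whole. In 4n-bottom the log2 fold change against 2n-whole was 0.22 ± 0.10 for Jun (SE, edgeR adjusted p = 0.453), and Jun, Junb and Ier2 were each higher in 4 of 4 mice. In 4n-top it was 0.29 ± 0.11 for Jun (edgeR adjusted p = 0.283) and 0.24 ± 0.11 for Junb (edgeR adjusted p = 0.406). The largest fitted value in 4n-top, 0.31 ± 0.29 for Gadd45b, had the widest error (edgeR adjusted p = 0.754). Junb was 206.2, 187.4 and 179.2 CPM in the 4n-top libraries of mice 2, 3 and 4, above the highest 2n-whole library at 172.6 CPM, so these groups did not overlap. Junb was the only one of the 9 genes with all 4n-top libraries above all of 2n-whole, an order found in 4.82% of all tested genes, and it was not called. These comparisons share the 2n-whole libraries, and their values are not independent. Against 2n-whole, 9 of 9 pericentral markers (near the central vein) were called higher in 4n-whole, 6 in 4n-bottom and 6 in 4n-top. Of 9 periportal markers (near the portal vein) 3, 0 and 1 were called lower in the same order. The shares over all tested genes were 3.47, 0.463 and 0.961%. Position in the lobule and ploidy cannot be told apart here, and the part of position was not tested.

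Between 4n-top and 4n-bottom, the populations enriched for mononucleated and binucleated tetraploid cells, the fitted differences were small for the abundant genes. The log2 fold change was 0.04 ± 0.12 (SE) for Fos, 0.07 ± 0.11 for Jun, 0.09 ± 0.11 for Junb, 0.02 ± 0.09 for Egr1 and 0.03 ± 0.11 for Dusp1. The interval of 2 SE on either side was -0.19 to 0.27 for Fos and -0.16 to 0.20 for Egr1. The least counted gene, Gadd45b, had the widest, -0.21 to 0.96 around 0.38, so a difference of either sign within that interval could not be told from none at this depth. Gadd45b and Junb were each higher in 3 of 3 mice. The other tested genes were each lower in 1 of 3 mice. All 9 tested genes had a positive fitted value, where 50.2% of all genes did, and 0 were called. The 9 values come from the same libraries and several members were correlated, so this tally does not count independent results.

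Once the mean of each mouse was removed, Fos, Jun, Junb, Egr1, Atf3 and Ier2 moved together from library to library. Over the 15 libraries Pearson's r of log2 CPM was then 0.98 between Jun and Ier2, 0.97 between Fos and Jun, 0.96 between Jun and Junb and 0.92 between Fos and Atf3. Egr1 followed less closely, with r from 0.67 (Atf3) to 0.79 (Ier2) against the rest of this group. With mouse means kept, the 4n-whole library of mouse 2 had the highest members' mean (0.52 on the log2 scale, next highest 0.16). The r values were not computed without that library. Dusp1 stood outside with r from -0.19 to 0.07 against Fos, Jun, Junb, Egr1, Atf3, Ier2 and Myc, and 0.73 against Gadd45b. As measured, with the mouse means kept, Fos and Jun had r = 0.73, and Dusp1 and Myc had r = -0.87. These correlations are descriptions, since libraries of 1 mouse are not independent and all genes of a library share its depth and mitochondrial share. Of 8462 genes with at least 5 CPM, those most like the members' mean with mouse means removed were Nr2f6 (r = 0.97), Hnrnpa0 (0.96), Atf5 and Spata13 (both 0.94), Zftraf1, Id3, Ftl1 and Ogfod2 (each 0.93). With mouse means kept they were Zfp598, Mical3 and Pprc1 (each 0.94), Phrf1, Unkl, Safb, Slx9 and Gm10382 (0.91 to 0.93).

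Other genes of the response were read from lists of named genes. Counts among mice stand beside the 19.2% of all tested genes and 38.9% of the better expressed ones given above. Calls in 4n-whole against 2n-whole stand beside 3.47% of all tested genes and 5.32% of the better expressed ones. For 4n-bottom against 2n-whole these shares were 0.463 and 0.835%, and for 4n-top against 2n-whole 0.961 and 1.79%. Of the AP-1 family beyond the members, 0 of 7 tested genes were called in any comparison of populations and 4 differed among mice, with Fosb and Jund the most abundant. Fosb tracked mice 2 and 3, with 130.2 ± 31.6 and 158.0 ± 32.8 CPM (SD, n = 4 libraries each), against 63.6 ± 12.2 in mouse 1 (n = 3 libraries) and 68.6 ± 9.12 in mouse 4 (edgeR adjusted p = 8.78e-09). Among 20 early factors of the SRF, EGR and KLF type, 11 differed among mice. Nr4a1, an orphan nuclear receptor induced by MAP kinase and cyclic AMP signals, was highest in mouse 3, at 132.7 ± 24.7 CPM against means of 37.1 to 61.1 in the others (edgeR adjusted p = 1.03e-09).

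Klf6, a zinc finger factor, and Hes1, a target of Notch signalling, were the 2 of these 20 called between populations, and both fell in every 4n population. Klf6 was 13.7 ± 4.36 CPM in 2n-whole (SD, n = 4), 8.59 ± 2.96 in 4n-whole, 8.25 ± 3.22 in 4n-bottom (n = 4 each) and 6.27 ± 1.64 in 4n-top (n = 3). Its log2 fold change against 2n-whole was -0.68 ± 0.16, -0.76 ± 0.16 and -1.32 ± 0.19 (SE; edgeR adjusted p = 0.0120, 0.0227 and 6.32e-05). For Hes1 it was -0.99 ± 0.15, -0.76 ± 0.15 and -0.94 ± 0.17 (edgeR adjusted p = 8.01e-05, 0.00720 and 0.00116). Both genes are also expressed in biliary and other non-parenchymal cells, and the biliary marker sum moved the same way, from 54.9 to 67.9 CPM in 2n-whole to 28.4 to 52.1 CPM in 4n-whole, with Spp1 called lower in each 4n population and Sox9 in 4n-whole. The biliary markers were not used as a covariate, and their part in these results was not tested. With the mean level of endothelial, macrophage and stellate markers as a covariate, Hes1 remained called in 4n-whole (log2 fold change -0.83, edgeR adjusted p = 0.00560), while the other Hes1 values and all 3 of Klf6 lost the call (-0.57 to -1.13, edgeR adjusted p = 0.0552 to 0.334). Without mouse 4 the call was lost for Klf6 in 4n-whole and 4n-bottom and for Hes1 in 4n-top (-0.56, -0.71 and -0.73, edgeR adjusted p = 0.241, 0.273 and 0.116), and Klf6 in 4n-bottom was also lost without mouse 1 or mouse 3.

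Of 23 feedback inhibitors of signalling, 6 were called in 4n-whole against 2n-whole, 3 in each direction, and 15 differed among mice. Pim1 and Socs2, both induced by cytokine receptors, rose by 0.62 ± 0.13 and 0.62 ± 0.14 on the log2 scale (SE; edgeR adjusted p = 0.00450 and 0.00618), as did Pim3. Dusp8, another MAP kinase phosphatase, fell by 1.39 ± 0.35 (edgeR adjusted p = 0.0174), and Spred1 and Tnfaip3 also fell. In 4n-bottom 1 of the 23, Tnfaip3, was called, lower, and in 4n-top 0 were. Errfi1 and Zfp36, the most abundant inhibitors of the list, were not called in any comparison of populations. Without the 4n-whole library of mouse 2 the 4n-whole calls of Pim1, Pim3, Spred1 and Tnfaip3 were lost, with log2 fold changes of 0.46, 0.35, -0.52 and -0.56 (edgeR adjusted p = 0.0338, 0.163, 0.0729 and 0.0721). Leaving out mouse 2 or mouse 4 whole also ended the calls of Pim3, Spred1 and Tnfaip3, and leaving out mouse 1 that of Spred1. Socs2 was lost without mouse 4 (0.55, edgeR adjusted p = 0.166), Dusp8 without mouse 1 (-1.08, edgeR adjusted p = 0.0788) and Tnfaip3 of 4n-bottom without mouse 1 (-0.67, edgeR adjusted p = 0.0926).

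Of 18 genes of the GADD45, p53 and integrated stress response group, 4 rose in 4n-whole against 2n-whole and 0 fell. They were Gadd45g (0.68 ± 0.15, SE, edgeR adjusted p = 0.00615), Atf4, the transcription factor at the centre of the integrated stress response (0.54 ± 0.11, adjusted p = 0.00215), Txnip (0.54 ± 0.10, adjusted p = 0.00103) and Hmox1. None was called in the other 3 comparisons. All 4 fell below the threshold without the 4n-whole library of mouse 2, where Gadd45g had 0.46, Atf4 0.43 and Txnip 0.47, below the fold limit, and Hmox1 had 0.64 (edgeR adjusted p = 0.0639). Hmox1 was also lost without mouse 1 (0.50, edgeR adjusted p = 0.0905) and Gadd45g without mouse 4 (0.57, edgeR adjusted p = 0.0537). The metal-binding protein gene Mt1 differed among mice, with 315.3 ± 41.5 CPM in mouse 3 (SD, n = 4 libraries) and means of 52.2 to 96.9 CPM in the other mice (edgeR adjusted p = 3.11e-15).

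The heat shock genes are a second stress response. Of 15 tested, 14 differed among mice and 1, Hspa1b, was called between populations. Hspa8, the constitutive HSP70, was 1654 ± 79.6 CPM in mouse 1 (SD, n = 3 libraries), 1327 ± 92.1 in mouse 2, 708.2 ± 55.6 in mouse 3 and 784.3 ± 50.2 in mouse 4 (edgeR adjusted p = 1.31e-11). Mouse 3, with the highest mean of Fos and Gadd45b, thus had the lowest of Hspa8, and mouse 1, with the lowest Fos, the highest. The list had no common order of mice, since Hsp90aa1 and Hsph1 were also highest in mouse 1 but Dnajb1 in mouse 2 (64.2 CPM) and Hsp90ab1 in mouse 4 (1650 CPM). Hspa1b, a stress-inducible HSP70, rose by 0.86 ± 0.21 in 4n-whole and 1.09 ± 0.23 in 4n-top against 2n-whole (SE; edgeR adjusted p = 0.0146 and 0.0112). The first call was lost without mouse 2 or mouse 4 (0.77 and 0.82, edgeR adjusted p = 0.0663 and 0.0615) and the second without mouse 3 (0.78, edgeR adjusted p = 0.113). Hspa1a and Hspa1b are near-identical copies, so the counts of each are uncertain.

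Among 9 tested chemokine, adhesion and acute phase genes, Lcn2 was lower in 4n-whole than in 2n-whole, by -1.49 ± 0.43 on the log2 scale (SE, edgeR adjusted p = 0.0388). It held 0.887 to 6.05 CPM in 2n-whole and 0.962 to 1.90 in 4n-whole, and was no longer called without the 4n-whole library of mouse 2 (-1.37, edgeR adjusted p = 0.122) or without mouse 2, 3 or 4. Cxcl1, a neutrophil chemokine, was 113.9 ± 11.2 CPM in mouse 2 (SD, n = 4 libraries) and had means of 47.3 to 56.9 CPM in the other mice (edgeR adjusted p = 5.68e-10), the same mouse in which Atf3 was highest. None of the 20 tested MYC partners and growth genes and none of the 29 upstream receptors and kinases was called between populations. Among mice 7 and 9 of them differed, shares between the 19.2% of all tested genes and the 38.9% of the better expressed ones. Across these lists 20 gene values were called between populations in the model with the mouse block, with absolute log2 fold changes of 0.51 to 1.49. Without the block 0 of the 20 were called, although all kept their direction at 0.48 to 1.53. With the mitochondrial share as a covariate 0 were called at 0.11 to 1.72, and Lcn2 changed sign, while 5 remained with the endothelial, macrophage and stellate markers as a covariate and 19 in DESeq2 with the block. The mitochondrial share of 2n-whole did not overlap that of 4n-whole or 4n-top, so its fit cannot separate the share from the population there. These lists were compiled by hand with earlier results of these data known, and their counts describe the lists alone.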

How the data were processed

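RNA from sorted hepatocytes was sequenced as stranded libraries (Takara SMART-Seq Stranded kit, total RNA input). The authors aligned reads to GRCm39 with STAR 2.7.11a and counted them per gene with featureCounts (Subread), as the submitters' processing notes list. The deposited table holds raw, unscaled counts of 55984 genes. The annotation, strand setting and handling of read pairs are not given in the sources used here. Among counts of 1 to 10, 74.2 to 81.4% per library were even, so both mates of a pair may have been counted and 3 counts may stand for fewer fragments.

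The main model used edgeR 4.0.16 (R 4.3.3) on the deposited counts, scaled by TMM, after the default low-count filter (minimum count 10, minimum total 15). It held all 15 libraries, with population and mouse as terms, and Benjamini-Hochberg adjustment covered the 17488 genes tested. The mouse came from the subject number in the labels. With population means removed, the correlation across genes between libraries of 1 mouse averaged 0.158 (lowest 0.0845 of 21 pairs). A call required an adjusted p below 0.05 together with a log2 fold change beyond 0.5 in either direction, while tests over all populations or mice used the adjusted p alone. Alternatives used DESeq2 1.42.0 and ComBat-seq (sva 3.50.0), and the mitochondrial, GC and single-library alternatives, the counts with no fold limit and all alternatives of the list genes were added after the data were seen. In simulated counts of 17488 genes for 4n-whole against 2n-whole, edgeR with the fold limit gave 5 false calls. It recovered 28% of genes changed by 0.5 and 98% of those changed by 1 on the log2 scale. A change of 0.5 equals the limit, so estimates below it were missed by rule, and with no limit 34% were recovered. The changed genes were drawn at random from those above 5 CPM and were not matched to the members' abundance.

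The members and lists were chosen with earlier results of these data known. Named genes were all members, from each list up to 3 called genes of smallest p and the 2 most abundant, and the 8 genes most like the members' mean. Genes named beyond this rule were chosen after their values were seen. Motifs were searched in RefSeq promoter sequences.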

Additional observations from a re-analysis of the deposited data

How the results depend on the processing

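Of the 540 alternative values of the members' log2 fold changes, 480 kept their direction and their side of the threshold, 1 (Jun in 4n-whole against 2n-whole, without mouse 1, 0.522) passed it, and 59 changed sign. No member was called between populations in the main model, and none of those 59 values was called in its alternative setting. The cause of the changes was not tested. Members called in 4n-whole against 2n-whole numbered 0 to 1 as each mouse or the 4n-whole library of mouse 2 was left out, and 3 with the adjusted p alone. Members that differed among populations numbered 3 with ComBat-seq followed by DESeq2 without the block, 1 with no filter on low counts, 1 after the GC and length correction and 0 to 1 over the left-out libraries. Members at an adjusted p under 0.05 with no fold limit in 4n-whole against 2n-whole numbered 3 in the main model. Without the replicate block, that is without the pairing of libraries by mouse, there were 0, and there were likewise 0 with the compared populations only, with the covariate of endothelial, macrophage and stellate markers and with the mitochondrial covariate, 1 after the GC and length correction, 4 in DESeq2 with the block, 5 with ComBat-seq followed by DESeq2 without it and 0 to 4 over the left-out libraries. Members that differed among mice numbered 6 to 9 under all alternatives. The mitochondrial covariate turned the sign of log2 fold changes against 2n-whole for Fos, Atf3, Myc and Gadd45b in 4n-whole (-0.05, -0.058, -0.498 and -0.19), for Fos, Jun, Junb, Atf3, Ier2 and Dusp1 in 4n-bottom (-0.148, -0.003, -0.001, -0.139, -0.031 and -0.065) and for Fos, Jun, Atf3, Ier2 and Dusp1 in 4n-top (-0.205, -0.007, -0.169, -0.019 and -0.061). It did so in 4n-top against 4n-bottom for Fos, Jun and Atf3 (-0.056, -0.004 and -0.03), and for Lcn2, a called list gene, in 4n-whole (0.425). The mitochondrial share was lower in 4n-whole and 4n-top than in 2n-whole without overlap, so these fits cannot separate the share from the population. The marker covariate turned Myc in 4n-whole (-0.138), Gadd45b in 4n-bottom (0.032), Fos and Atf3 in 4n-top against 2n-whole (-0.004 and -0.009) and the same pair in 4n-top against 4n-bottom (-0.035 and -0.01). The GC and length correction turned Myc and Gadd45b in 4n-whole (-0.003 and -0.08) and Dusp1 in 4n-bottom (-0.026). With the compared populations only, Gadd45b in 4n-whole (-0.022), Dusp1 in 4n-bottom (-0.006) and Myc in 4n-top (0.047) turned. Without the replicate block Dusp1 turned in 4n-bottom and 4n-top against 2n-whole and between these 2 populations (-0.001, -0.176 and -0.174), as did Myc in 4n-top against 2n-whole (0.172). ComBat-seq followed by DESeq2 turned Dusp1 in 4n-bottom (-0.019) and Myc in 4n-top (0.017), and Dusp1 in 4n-bottom was also turned by DESeq2 with the block (-0.019), by its size factors (-0.018) and by leaving out mitochondrial genes (-0.006). Over the left-out libraries the sign was not fixed for Myc (-0.061 to 0.166) and Gadd45b (-0.278 to 0.237) in 4n-whole, for Dusp1 (-0.035 to 0.028) and Gadd45b (-0.135 to 0.021) in 4n-bottom, for Atf3 (-0.107 to 0.22), Dusp1 (-0.059 to 0.083) and Myc (-0.258 to 0.209) in 4n-top against 2n-whole, and in 4n-top against 4n-bottom for Fos (-0.049 to 0.136), Jun (-0.026 to 0.15), Egr1 (-0.051 to 0.086), Atf3 (-0.152 to 0.188), Ier2 (-0.002 to 0.121) and Dusp1 (-0.052 to 0.119). In the simulation of 4n-whole against 2n-whole, changes of 0.5 on the log2 scale were often missed, with and without the fold limit. Its genes were not matched to the members' abundance, so it does not give the share that would be missed among the members. With 3 or 4 libraries per population, a gene that did not pass cannot be taken as equal.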
